A study of Mus musculus with 2 samples.

Results

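The genes described here encode the proteins of the skeletal muscle sarcomere, the repeating contractile unit of striated muscle. The 51 genes were listed by name, with earlier results of these data known, and all 51 were found among 21474 protein coding genes in both tables. It holds 8 myosin heavy chain genes, 6 myosin light chain genes, 2 actins, 8 troponins, 3 tropomyosins and the giant proteins, and it also holds the M-band, Z-disc, filament-capping and assembly proteins. Tissue was embryonic facial prominence of B6NCrl mice at embryonic day 15.5, which is a mixture of cell types, and the labels name no genotype, transgene or treatment. Replicate 1 was a pool from 78 embryos and replicate 2 a pool from 62, each of mixed sex and healthy, and 1 library of total RNA was made from each. The libraries form 1 group with 2 replicates, so no comparison between conditions and no test was possible. Both libraries carry the same donor label, and each value is given as measured in each library or as mean ± SD (n = 2).

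A sarcomere slides thin actin filaments past thick myosin filaments, and the troponin and tropomyosin on the thin filament switch that sliding on with calcium. Most of its proteins are encoded by small gene families whose members are used at different times or in different fibres: embryonic and perinatal forms come first, and slow and fast forms divide the fibres later. In the head, the muscles of the face, jaw and eye form in cranial mesoderm that lies among neural crest cells, while those of the tongue come from occipital somites.

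Levels are in TPM, a transcript level in which reads are divided by transcript length and scaled to a fixed total per library, so genes of different length can be compared. Expected counts, the authors' estimates of reads per gene, totalled 37128010 for replicate 1 and 38543623 for replicate 2. Each read on 1 kb of transcript was worth 0.0406 TPM in replicate 1 and 0.0389 TPM in replicate 2. Synthetic spike-in RNA took 2.91% of the counts of replicate 1 and 4.59% of those of replicate 2. The deposited TPM total includes the spike-ins and other sequences that are not genes, so that genes held 93.6% of it in replicate 1 and 89.9% in replicate 2. Between the libraries, counts over 15721 coding genes differed more than counting noise would give, with a chi-square per degree of freedom of 11.5.

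RNA of the sarcomere was abundant in both pools. Of the 51 sarcomere genes, 44 were at 1 TPM or more in both libraries, against 65.4% of all coding genes. A mean of 100 TPM or more was reached by 18 of the 51, against 6.96% of all coding genes, and 33 were at 10 TPM or more, against 43.2% of all coding genes. The median of the mean level was 18.9 TPM over the 51 sarcomere genes and 6.13 TPM over all coding genes. Together the 51 genes took 0.887% of gene TPM in replicate 1 and 0.709% in replicate 2. In bulk tissue, fewer muscle cells and less of each RNA per muscle cell cannot be told apart. The 6 genes under 1 TPM in both libraries were Myh1, Myh2, Myh4, Myh13, Mybpc2 and Xirp2, and Myh6 was above it in replicate 1 only. Those 6 include each of the 3 adult fast myosin heavy chain genes in the list, and the 4 genes of form "embryonic" all had means above 100 TPM.

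**Figure D1:**
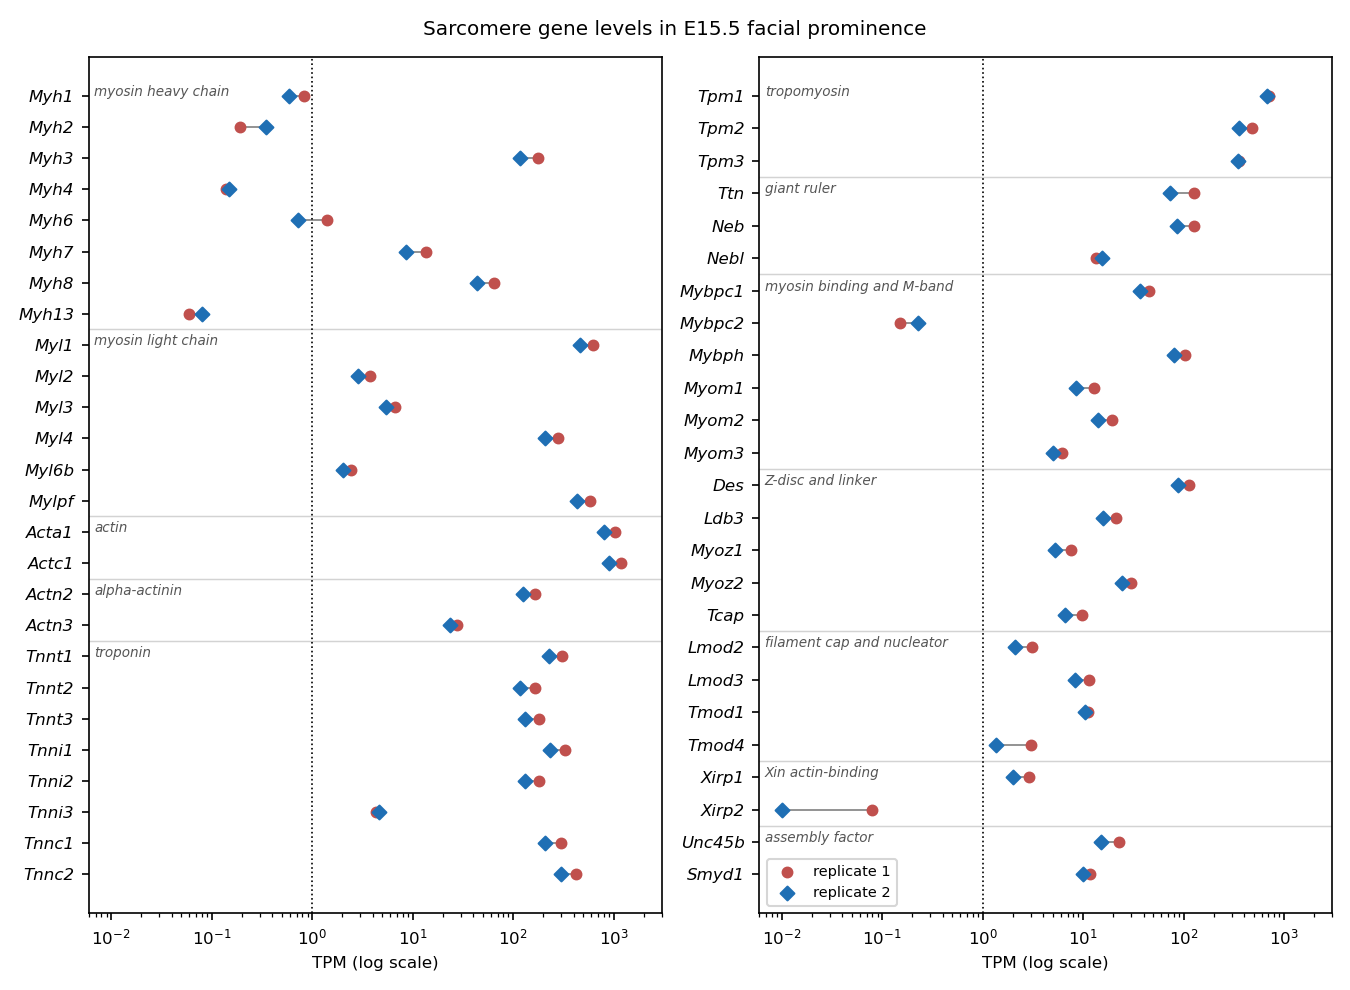
Level of each of the 51 sarcomere genes in TPM (log axis) in replicate 1 (circles) and replicate 2 (diamonds), grouped by role, with a dotted line at 1 TPM. Actc1 and Acta1 are highest, Myh3 and Myh8 stand far above the other heavy chains except Myh7, and most genes have the diamond to the left of the circle.

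The myosin heavy chain carries the motor of the thick filament, and its genes showed the sharpest split between forms. Myh3, the embryonic heavy chain, was at 176 TPM in replicate 1 and 118 TPM in replicate 2. Myh8, the perinatal heavy chain, was at 63.9 TPM in replicate 1 and 43.9 TPM in replicate 2. Both developmental forms were therefore abundant in each pool, with Myh3 above Myh8 by more than the difference between replicates. Myh7, the heavy chain of slow fibres and of the ventricle, followed at 13.7 TPM in replicate 1 and 8.67 TPM in replicate 2. Myh6, the atrial heavy chain, was at 1.40 TPM in replicate 1 and 0.72 TPM in replicate 2. Its full-length transcript model, Myh6-201, was at 0.99 TPM in replicate 1. Short models on 2.03 and 1.15 expected counts brought the gene above 1 TPM there. By the authors' posterior mean TPM, another deposited estimate, Myh6 was at 2.11 TPM in replicate 1 and 1.39 TPM in replicate 2.

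The adult fast heavy chains were far below the developmental ones, each under 1 TPM. Myh1, of fast 2X fibres, was at 0.83 TPM in replicate 1 and 0.59 TPM in replicate 2, from 121 and 78.5 expected counts. For Myh2, of fast 2A fibres, the level was 0.19 TPM in replicate 1 and 0.35 TPM in replicate 2. Myh4, of fast 2B fibres, had 0.14 TPM in replicate 1 and 0.15 TPM in replicate 2, from 20.5 and 23.5 expected counts. These 3 genes make the main heavy chains of adult fast limb muscle. The extraocular heavy chain Myh13 was the lowest of the 8, at 0.06 TPM in replicate 1 and 0.08 TPM in replicate 2. It had 8.34 and 12.3 expected counts, and on its length 3 reads would make 0.0213 TPM in replicate 1 and 0.0204 TPM in replicate 2. The deposited credibility interval of Myh13 ran between 0.0443 and 0.386 TPM in replicate 1 and between 0.0620 and 0.363 TPM in replicate 2, which is wide for its level.

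Expressed as shares of the heavy chain TPM, Myh3 took 68.5% ± 0.237 (SD, n = 2) and Myh8 took 25.2% ± 0.401. The developmental forms Myh3 and Myh8 together made 93.6% in replicate 1 and 93.9% in replicate 2, a mean of 93.7% ± 0.164. Myh7 took 5.20% ± 0.218, and the other 5 heavy chains each took under 1%. Between the developmental forms alone, Myh3 held 73.4% in replicate 1 and 72.8% in replicate 2. These proportions differed between the pools by far less than the levels themselves did.

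**Figure D2:**
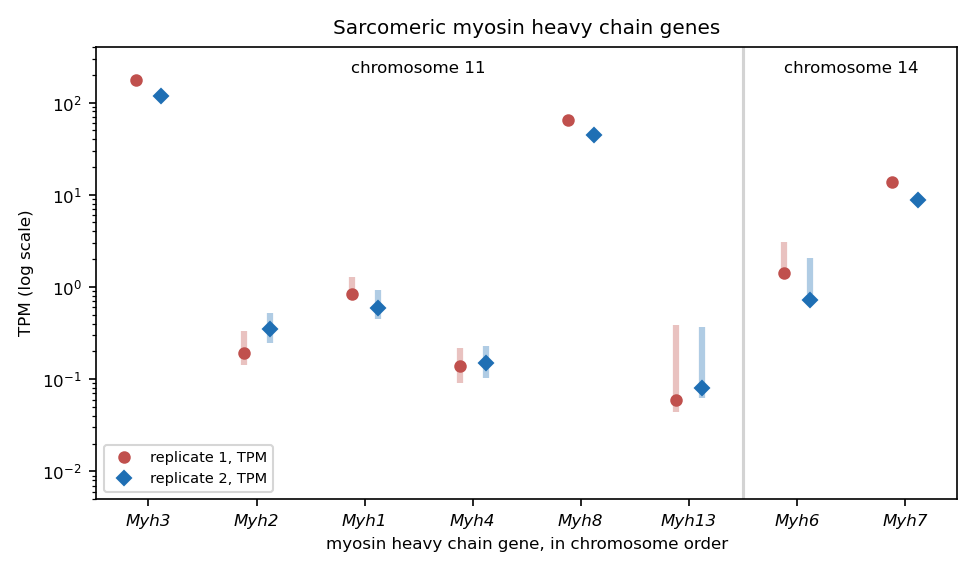
Level in TPM (log axis) of the 8 sarcomeric myosin heavy chain genes in chromosome order, for replicate 1 (circles) and replicate 2 (diamonds), with the deposited credibility interval as a pale bar. Myh3 and Myh8 lie at opposite sides of Myh2, Myh1 and Myh4 on chromosome 11. Both lie far above them in each library, while the intervals of the low genes are wide. Some points lie outside their bar, among them Myh3 in both libraries and Myh6 in replicate 2.

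Order on the chromosome did not follow level. On chromosome 11 (GRCm38, plus strand, 67078300 to 67371586) the genes run Myh3, Myh2, Myh1, Myh4, Myh8 and Myh13, so the low adult genes lie between the abundant developmental genes. Myh4 ends 16677 nucleotides before Myh8 begins. Myh6 and Myh7 lie 3756 nucleotides apart on the minus strand of chromosome 14. The troponin genes also lie in pairs of a troponin I and a troponin T gene. On chromosome 1 Tnni1 and Tnnt2 lie 25364 nucleotides apart, and both were above 100 TPM in both libraries. Tnni2 and Tnnt3 on chromosome 7 lie 54425 nucleotides apart and had nearly equal levels. Tnnt1 lies 1922 nucleotides from Tnni3, the cardiac troponin I gene, yet Tnnt1 was at 306 TPM in replicate 1 and 228 TPM in replicate 2 while Tnni3 was at 4.32 TPM and 4.66 TPM.

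The upstream sequences of 5 genes are shown because they contrast the most abundant sarcomere genes (Actc1 and Acta1), the abundant developmental heavy chains (Myh3 and Myh8) and a low adult heavy chain (Myh4). Each is the 250 bases before the RefSeq start on GRCm38.p6, written in the direction of the gene. Capitals mark the E-box CAGCTG, the CArG box, the MEF2 site, the MCAT element CATTCC and TATAAA, each searched on both strands. In Myh8 and Myh4 the MEF2 site contains TATAAA on the opposite strand, and no other matches shown overlap. Positions are Acta1 chr8:123894776-123895025 minus strand, Actc1 chr2:114052876-114053125 minus strand, Myh3 chr11:67078050-67078299 plus strand, Myh8 chr11:67276874-67277123 plus strand and Myh4 chr11:67237562-67237811 plus strand.
Acta1: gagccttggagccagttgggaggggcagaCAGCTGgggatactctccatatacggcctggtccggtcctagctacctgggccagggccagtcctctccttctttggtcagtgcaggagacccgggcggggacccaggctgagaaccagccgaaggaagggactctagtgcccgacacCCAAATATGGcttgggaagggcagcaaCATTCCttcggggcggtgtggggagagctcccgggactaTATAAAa
Actc1: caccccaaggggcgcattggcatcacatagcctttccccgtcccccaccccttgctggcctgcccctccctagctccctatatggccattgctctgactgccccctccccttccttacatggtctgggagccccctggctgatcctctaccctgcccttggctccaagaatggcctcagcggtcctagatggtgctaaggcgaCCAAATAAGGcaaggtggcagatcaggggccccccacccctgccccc
Myh3: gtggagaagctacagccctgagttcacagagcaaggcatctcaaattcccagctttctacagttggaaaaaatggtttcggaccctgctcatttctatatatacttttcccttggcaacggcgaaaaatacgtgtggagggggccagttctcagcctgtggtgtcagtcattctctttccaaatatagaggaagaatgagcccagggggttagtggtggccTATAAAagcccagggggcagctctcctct
Myh8: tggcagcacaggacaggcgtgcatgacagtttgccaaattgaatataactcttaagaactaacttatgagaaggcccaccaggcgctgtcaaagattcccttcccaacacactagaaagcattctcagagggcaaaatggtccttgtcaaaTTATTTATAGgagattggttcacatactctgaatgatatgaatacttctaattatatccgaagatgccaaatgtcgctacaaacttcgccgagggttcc
Myh4: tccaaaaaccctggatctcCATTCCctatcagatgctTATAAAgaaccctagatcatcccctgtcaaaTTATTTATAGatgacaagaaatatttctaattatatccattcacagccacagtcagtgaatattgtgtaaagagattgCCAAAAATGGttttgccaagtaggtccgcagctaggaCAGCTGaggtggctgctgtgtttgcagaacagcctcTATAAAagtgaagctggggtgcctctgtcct

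Muscle transcription factors bind such letters: MyoD and its relatives bind E-boxes, serum response factor binds the CArG box, MEF2 proteins bind the MEF2 site and TEAD proteins the MCAT element. Myh4, which was low, held all 5 motifs, and Myh3, the most abundant heavy chain, held TATAAA and none of the others in this window. So the letters in this window did not sort the 5 genes by level. A RefSeq window was at hand for 42 of the 51 genes. The CArG box was in 16.7% of them, against 1.62% of the windows of 27025 genes. CAGCTG was in 31% of the sarcomere windows, against 14.7% of all windows. The MEF2 site was in 16.7%, against 3.42% of all. CATTCC was in 33.3%, against 14.4% of all, and TATAAA in 23.8%, against 14.3% of all. A match is a run of letters and not a measured binding site.

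Light chains wrap the neck of the heavy chain, and here the fast and embryonic forms held nearly all of the level. Myl1, the fast essential light chain, was at 627 TPM in replicate 1 and 464 TPM in replicate 2. Mylpf, the fast regulatory light chain, was at 588 TPM in replicate 1 and 431 TPM in replicate 2. Myl4, the essential light chain of embryonic muscle and the atrium, was at 280 TPM in replicate 1 and 207 TPM in replicate 2. These 3 genes took 41.7%, 38.8% and 18.6% of the light chain TPM by mean. The slow forms were low in both pools. Myl2, the slow and ventricular regulatory chain, was at 3.73 TPM in replicate 1 and 2.87 TPM in replicate 2. Myl3, the slow and ventricular essential chain, was at 6.73 TPM in replicate 1 and 5.44 TPM in replicate 2. Myl6b, another slow essential chain, was at 2.45 TPM in replicate 1 and 2.01 TPM in replicate 2.

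Among the proteins that bind myosin or cross-link it at the M-band, slow myosin binding protein C dominated its fast counterpart. Mybpc1, the slow form, was at 45.7 TPM in replicate 1 and 36.9 TPM in replicate 2. Mybpc2, the fast form, was at 0.15 TPM in replicate 1 and 0.23 TPM in replicate 2, from 13 and 21 expected counts. Mybph, the smaller related protein H, was the highest of this role at 102 TPM in replicate 1 and 79.9 TPM in replicate 2. The myomesins, which tie thick filaments together, were lower. Myom2 was at 19.4 TPM in replicate 1 and 14.2 TPM in replicate 2, Myom1 at 12.7 TPM and 8.46 TPM, and Myom3 at 6.21 TPM and 4.97 TPM.

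Actins form the thin filament, and the 2 sarcomeric actins were the most abundant of the 51 genes. Actc1, cardiac actin, which embryonic skeletal muscle also uses, was at 1182 TPM in replicate 1 and 893 TPM in replicate 2. Acta1, skeletal actin, was at 1033 TPM in replicate 1 and 801 TPM in replicate 2. Their ranks by mean TPM were 78 and 94 of 21474 coding genes. Actc1 held 53.4% of the sarcomeric actin TPM in replicate 1 and 52.7% in replicate 2, so it was the higher in each library, but the ranges of the 2 genes over the libraries overlap. The cytoplasmic actin Actb, made by nearly every cell, was at 4491 TPM in replicate 1 and 4093 TPM in replicate 2.

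Troponin is the calcium switch, with a T subunit that anchors it, an I subunit that inhibits and a C subunit that binds calcium, and both slow and fast forms were abundant for all 3 subunits. Slow Tnni1 was at 329 TPM in replicate 1 and 233 TPM in replicate 2. Fast Tnni2 was at 182 TPM in replicate 1 and 133 TPM in replicate 2. Within each library the slow inhibitory form was the higher. Slow Tnnt1 was at 306 TPM in replicate 1 and 228 TPM in replicate 2. Fast Tnnt3 was at 182 TPM in replicate 1 and 130 TPM in replicate 2. Tnnt2, the cardiac form that embryonic skeletal muscle makes for a time, was at 167 TPM in replicate 1 and 119 TPM in replicate 2. It held 25.2% ± 0.424 of the troponin T level, close to the 27.6% ± 0.326 of Tnnt3. For the calcium-binding subunit the order was turned, with the fast form higher. Fast Tnnc2 was at 424 TPM in replicate 1 and 301 TPM in replicate 2, and Tnnc1, of slow and cardiac muscle, was at 299 TPM and 210 TPM. The cardiac inhibitory form Tnni3 took only 1.05% ± 0.298 of the troponin I level.

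Tropomyosin lies along actin and blocks myosin until calcium arrives, but the genes also make forms for nonmuscle cells. Tpm1 was at 703 TPM in replicate 1 and 684 TPM in replicate 2. Tpm2 was at 475 TPM in replicate 1 and 353 TPM in replicate 2. Tpm3 was at 352 TPM in replicate 1 and 347 TPM in replicate 2. Tpm1 and Tpm3 were thus nearly equal between the pools, whereas Tpm2 was lower in replicate 2 like most sarcomere genes. Tpm4, a tropomyosin of nonmuscle cells outside the list, was at 492 TPM and 472 TPM.

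The giant proteins set the length and elasticity of the filaments. Titin (Ttn), which spans from Z-disc to M-band, was at 127 TPM in replicate 1 and 72.7 TPM in replicate 2. Nebulin (Neb), which lies along the thin filament, was at 127 TPM in replicate 1 and 85.6 TPM in replicate 2. Both gene levels rest on short transcript models, as the transcript tables below show. Nebl, whose gene makes the cardiac protein nebulette and a short LIM-domain protein, was at 13.4 TPM in replicate 1 and 15.3 TPM in replicate 2. It was one of few genes in the list that were higher in replicate 2.

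At the Z-disc, where thin filaments are anchored, the general α-actinin exceeded the fast one. Actn2 was at 166 TPM in replicate 1 and 125 TPM in replicate 2. Actn3, of fast fibres, was at 27.7 TPM in replicate 1 and 23.7 TPM in replicate 2. Desmin (Des), the intermediate filament that links neighbouring Z-discs, was at 112 TPM in replicate 1 and 87.6 TPM in replicate 2. Ldb3, the Z-disc PDZ-LIM protein also called ZASP or Cypher, was at 21.3 TPM in replicate 1 and 15.9 TPM in replicate 2. The calsarcins bind calcineurin at the Z-disc. Myoz2, the slow form, was at 29.8 TPM in replicate 1 and 24.4 TPM in replicate 2. Myoz1, the fast form, was at 7.64 TPM in replicate 1 and 5.24 TPM in replicate 2. Telethonin (Tcap), which caps titin at the Z-disc, was at 9.8 TPM in replicate 1 and 6.6 TPM in replicate 2.

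Proteins that cap, nucleate or assemble filaments were lower. All 6 were at 1 TPM or more in both libraries, against 65.4% of all coding genes. Among the leiomodins, which nucleate actin, skeletal Lmod3 was at 11.5 TPM in replicate 1 and 8.26 TPM in replicate 2, and cardiac Lmod2 at 3.13 TPM and 2.10 TPM. Tropomodulins cap the slow-growing end of the thin filament. Tmod1 was at 11.3 TPM in replicate 1 and 10.5 TPM in replicate 2, and Tmod4, of skeletal muscle, at 3.04 TPM and 1.37 TPM from 71 and 37 expected counts. The assembly factors help myosin fold. Unc45b, a myosin chaperone, was at 23.0 TPM in replicate 1 and 14.9 TPM in replicate 2, and Smyd1, a methyltransferase of muscle, at 11.7 TPM and 9.93 TPM. The Xin proteins bind actin at attachment sites of muscle cells. Xirp1 was at 2.89 TPM in replicate 1 and 2.01 TPM in replicate 2. Xirp2 was at 0.08 TPM and 0.01 TPM, from 22.5 and 4 expected counts.

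Setting the slow form beside the fast form in 9 protein families, the slow form was the higher in 5 and the fast form in 4, and each family kept its side in both libraries. The 5 with the slow form higher were Myh7 against the summed adult fast heavy chains (90.5% ± 2.38 slow), Tnni1 (64.0% ± 0.445), Tnnt1 (63.2% ± 0.644), Mybpc1 (99.5% ± 0.207) and Myoz2 (81.0% ± 1.92). The fast form was the higher for Mylpf against Myl2 (0.646% ± 0.0220 slow), for Myl1 against Myl3 and Myl6b (1.5% ± 0.0963), for Tnnc2 against Tnnc1 (41.2% ± 0.179) and for Tpm1 against Tpm3 (33.5% ± 0.187). Slow and fast forms of different proteins thus did not run in parallel. Counting slow and fast forms alone, the light chains were almost wholly fast, whereas the heavy chains and myosin binding protein C were mostly slow. Left out of that count were embryonic Myl4, at 18.6% of light chain TPM, and Myh3 with Myh8, at 93.7% of heavy chain TPM. The tropomyosin figure mixes muscle and nonmuscle forms, and Tpm3 and Tpm1 are described by transcript below. By form, the 10 genes classed as slow had a median of the mean level of 34.2 TPM and the 13 classed as fast 25.7 TPM, and the range of the slow genes lay inside that of the fast genes.

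Forms of early development were set beside their later counterparts in the same way. Myl4 held 30.9% ± 0.0560 of its level summed with Myl1, 30.9% in replicate 1 and 30.8% in replicate 2. Tnnt2 held 25.5% of troponin T in replicate 1 and 24.9% in replicate 2. Actc1 held 53.0% ± 0.451 of sarcomeric actin, and Myh3 with Myh8 93.7% of the heavy chains. The early form was therefore the main one among heavy chains, about level with its counterpart among actins, and the minor one among essential light chains and troponin T. Fast Actn3 held 15.1% ± 1.16 of the α-actinin pair, and cardiac Lmod2 20.8% ± 0.764 of the leiomodin pair. Tmod4 held 21.3% of the tropomodulin pair in replicate 1 and 11.5% in replicate 2, the widest spread of the 17 comparisons.

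**Figure D3:**
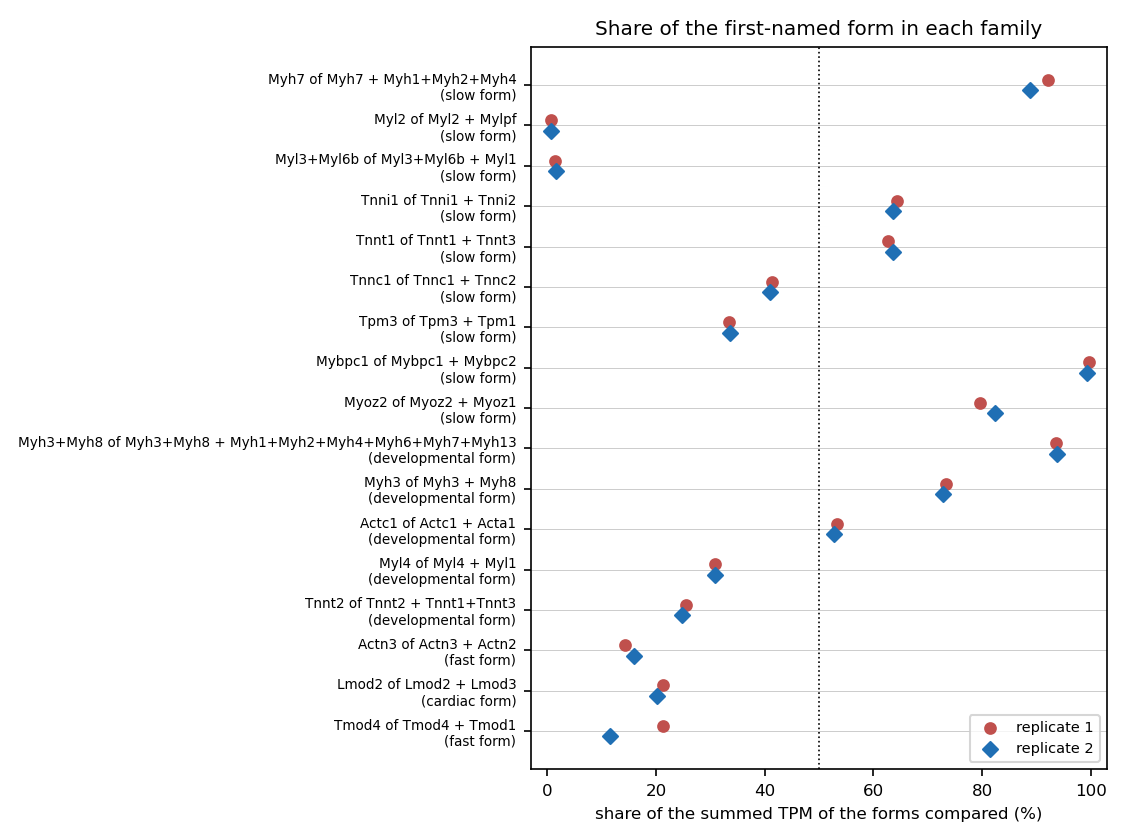
Share (%) of the form named before "of" in the summed TPM of the forms compared, for 9 slow and fast families and 8 other comparisons, in replicate 1 (circles) and replicate 2 (diamonds), with a dotted line at 50%. The pools lie close together in every comparison but the tropomodulins, and the slow form ranges between under 1% and over 99% of its family.

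The transcript tables split each gene level over annotated models, with a percentage for each model (isoform percentage). Of 311 models of the 51 genes, 307 carry a name in GENCODE M21. Tropomyosin 1 was mostly in models of 284 codons, the length of the long forms that include the muscle proteins, with 75.7% of the gene in replicate 1 and 75.5% in replicate 2. Within that class, Tpm1-205 (1208 nt) was at 235 TPM in replicate 1 and 192 TPM in replicate 2, and Tpm1-213 (1742 nt) at 209 TPM and 220 TPM. Tpm1-205 was thus lower in replicate 2 while Tpm1-213 was slightly higher. The short Tpm1-211 (248 codons), of the length of nonmuscle forms, was at 103.2 TPM and 105.8 TPM. A further Tpm1 model, of 649 nt with no reading frame, was estimated at 27.2 TPM in replicate 1 and 0.00 TPM in replicate 2. Tpm3 was mainly a short form: its 248-codon models held 85.1% of the gene in replicate 1 and 86.2% in replicate 2, chiefly Tpm3-201 at 284 TPM and 288 TPM. The 284-codon Tpm3 model was at 3.20 TPM and 1.20 TPM, and the 285-codon Tpm3-204 at 6.80 TPM and 0.00 TPM. The deposited credibility intervals of Tpm3-204 overlap, between 1.22 and 12.1 TPM in replicate 1 and up to 5.95 TPM in replicate 2. Tpm2 was split between Tpm2-203 (232 TPM and 169 TPM) and Tpm2-202 (225 TPM and 166 TPM), both of 284 codons.

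The level of titin came mostly from a short model at the start of the gene. Ttn-215, of 2159 nt and 645 codons, covered the first 6.3% of the gene span and took an isoform percentage of 58.5% in replicate 1 and 57.7% in replicate 2. Models at least 50% as long as the longest, which is 106824 nt, were at 8.07 TPM in replicate 1 and 4.53 TPM in replicate 2, or 6.35% and 6.23% of the gene. Those long models nevertheless took 72.2% of its expected counts in replicate 1 and 69.5% in replicate 2. Nebulin was alike. Neb-204, of 1000 nt and no annotated reading frame, took 79.5% in replicate 1 and 79.1% in replicate 2, while the long models of up to 22489 nt were at 7.78 TPM and 4.87 TPM with 55.1% and 54.1% of the counts. TPM of these giant genes is thus weighted towards short models, and by the long models alone they were near the levels of Myom3 and Myoz1.

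Nebl was mostly in a short coding model and a model with no reading frame. Nebl-201, of 270 codons and the length of the LIM-domain protein, was at 6.41 TPM in replicate 1 and 7.06 TPM in replicate 2, or 47.8% and 46.2% of the gene. Nebl-205, with no reading frame, was at 5.47 TPM and 7.10 TPM, or 40.7% and 46.4%. The nebulette-length Nebl-202, of 1014 codons, was at 0.06 TPM and 0.04 TPM. Myl1 makes 2 proteins from separate starts. Myl1-202, of 150 codons (the length of MLC3F), was at 405 TPM in replicate 1 and 288 TPM in replicate 2, and Myl1-201, of 188 codons (the length of MLC1F), at 205 TPM and 163 TPM. The model with the shorter reading frame was therefore the higher in both pools. Ldb3 was divided between the long Ldb3-205 (684 codons, 57.4% and 56.2%) and the short Ldb3-203 (327 codons, 40.2% and 40.3%).

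Fast troponin T was spread over several models of similar level. Tnnt3-215 was the highest at 46.3 TPM in replicate 1 and 30.6 TPM in replicate 2, followed by Tnnt3-202 at 41.9 TPM and 29.3 TPM, with isoform percentages of 25.5% and 23.5% for the first and 23.1% and 22.5% for the next. Slow troponin T was spread likewise, with Tnnt1-201 at 92.0 TPM and 70.3 TPM and Tnnt1-203 at 85.7 TPM and 64.1 TPM. Tnnt2-207 held 56.4% of Tnnt2 in replicate 1 and 60.1% in replicate 2. Models with a retained intron took part of several genes. Myl4-204, a retained-intron model, held 30.8% of Myl4 in replicate 1 and 30.0% in replicate 2. Actn3-202, also with a retained intron, held 45.2% of Actn3 in replicate 1 and 36.3% in replicate 2, and the coding Actn3-201 was at 15.2 TPM and 15.1 TPM. The coding model of Actn3 thus hardly differed between the pools, unlike the gene beside it in the list, Actn2.

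Several other genes were split between models. Myh3 was split over 3 models of the same coding length, 1940 codons, with Myh3-202 at 98.0 TPM in replicate 1 and 66.0 TPM in replicate 2. Mybpc1-202 (1124 codons) held 62.3% of Mybpc1 in replicate 1 and 49.0% in replicate 2, Mybpc1-201 (1127 codons) 13.3% and 16.6%, and the rest lay in shorter coding and retained-intron models. Smyd1 was divided about evenly between Smyd1-202 (477 codons, 53.6% and 45.7%) and Smyd1-201 (490 codons, 46.4% and 54.3%). Tnni2-201 held 83.9% of Tnni2 in replicate 1 and 85.6% in replicate 2, and Tnni2-206, of the same coding length, most of the rest. The balance of models was thus closer between the pools for Tnni2 than for Mybpc1 or Smyd1.

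**Figure D4:**
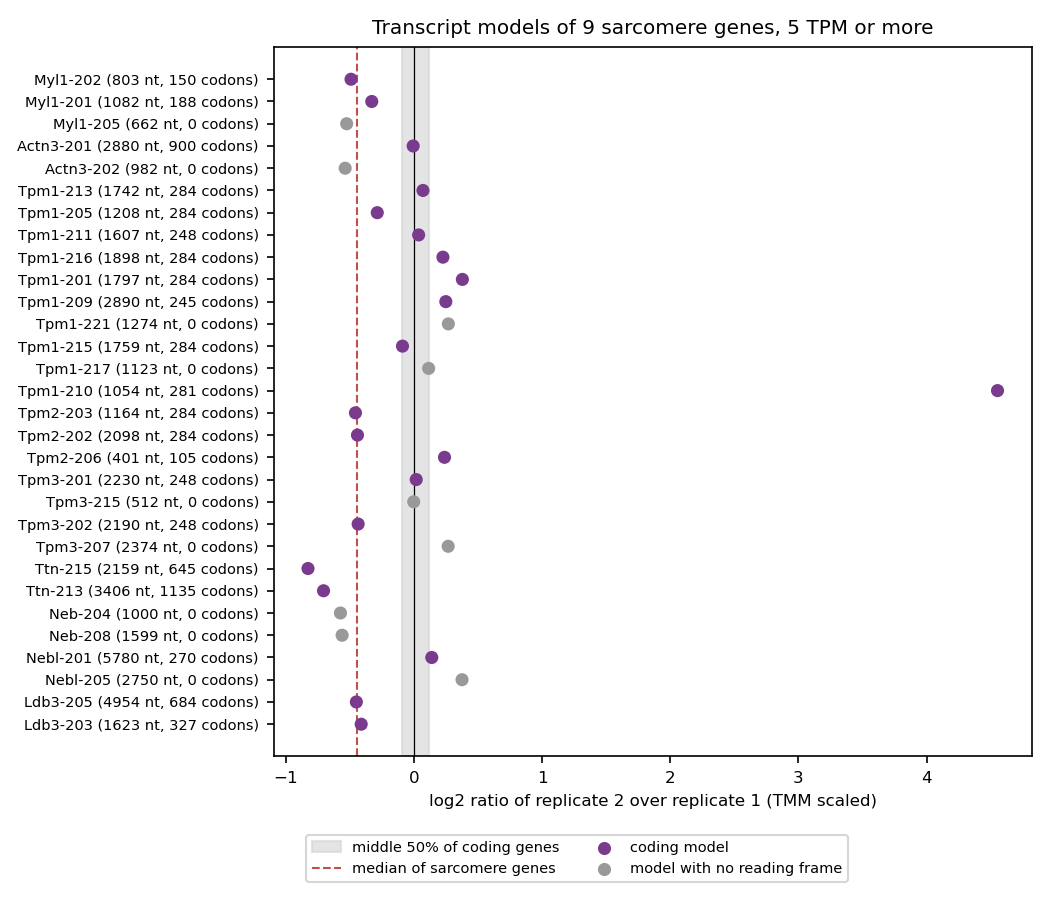
Log2 ratio of replicate 2 over replicate 1 for transcript models of 9 sarcomere genes at a mean of 5 TPM or more and 10 counts or more in both libraries (which leaves out the 649-nt Tpm1 model), with coding models in purple and models with no reading frame in grey; the grey band spans the quartiles of coding genes and the dashed line is the median of sarcomere genes. Tpm2, Myl1, Ttn, Neb and Ldb3 models lie near or left of the dashed line with the exception of Tpm2-206, whereas the main Tpm1, Tpm3 and Nebl models lie near or right of the band except Tpm1-205 and Tpm3-202. The point far to the right is Tpm1-210, whose estimate was 0.44 TPM in replicate 1 and 12.2 TPM in replicate 2.

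The pools differed in the level of most of the set. Ratios of replicate 2 over replicate 1 were taken on counts scaled by TMM, which sets the bulk of genes equal, for genes that reached 10 counts in each library, which kept 49 of the 51, all but Myh13 and Xirp2. The ratio was below 1 for 43 of the 49, against 48.8% of all coding genes. Their median log2 ratio was -0.44, or 1.36-fold higher in replicate 1, with quartiles of -0.54 and -0.28. Over 15721 coding genes the median was 0.00 with quartiles of -0.09 and 0.12. Of the 49 sarcomere genes, 42 lay below the lower of these quartiles, 2 between them and 5 above the upper. With 1 library for each pool, a difference between the pools cannot be told apart from a difference between libraries.

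Past 1.5-fold, 5 genes were lower in replicate 2, against 2.14% of all coding genes, and none was higher, against 4.36%. Scaled to the spike-ins instead, 44 were past it, against 65.8% of all coding genes lower. With TMM, the 5 genes past 1.5-fold lower were Tmod4 (log2 ratio -0.96), Ttn (-0.79), Myh1 (-0.68), Myh7 (-0.66) and Neb (-0.65). Ttn rested on 25688 expected counts in replicate 1 and 15462 in replicate 2, and Tmod4 on 71 and 37. Myom1 and Myh3, both at -0.58, lay just inside the threshold. The highest ratios were those of Mybpc2 (0.56), Myh2 (0.50), Tnni3 (0.27), Nebl (0.20) and Myh4 (0.19). Of these 5, Nebl alone had more than 100 counts in each library, and Mybpc2, Myh2 and Myh4 had fewer than 50. Tpm1 at 0.02 and Tpm3 at -0.02 were the 2 genes between the quartiles.

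Slow, fast and embryonic genes had similar medians, and medians of roles ranged more widely, some of them over only 2 or 3 genes that differed. Slow genes had a median log2 ratio of -0.43 (10 genes), fast genes -0.42 (13 genes) and embryonic genes -0.45 (4 genes), while the 4 genes classed as cardiac had -0.13. Those 4 split, with Myh6 at -0.47 and Lmod2 at -0.56 but Nebl at 0.20 and Tnni3 at 0.27. The 8 troponins had a median of -0.49, the 6 light chains -0.40 and the 2 actins -0.39. Grouped as a role, the giant proteins Ttn and Neb with the much smaller Nebl had -0.65, between Ttn at -0.79 and Nebl at 0.20. The 2 α-actinins had -0.26, between Actn2 at -0.41 and Actn3 at -0.10. Among heavy chains the developmental Myh3 and Myh8 (-0.58 and -0.54) and the slow Myh7 (-0.66) were all lower in replicate 2. The median of the 3 tropomyosins was -0.02, with Tpm2 at -0.44.

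**Figure D5:**
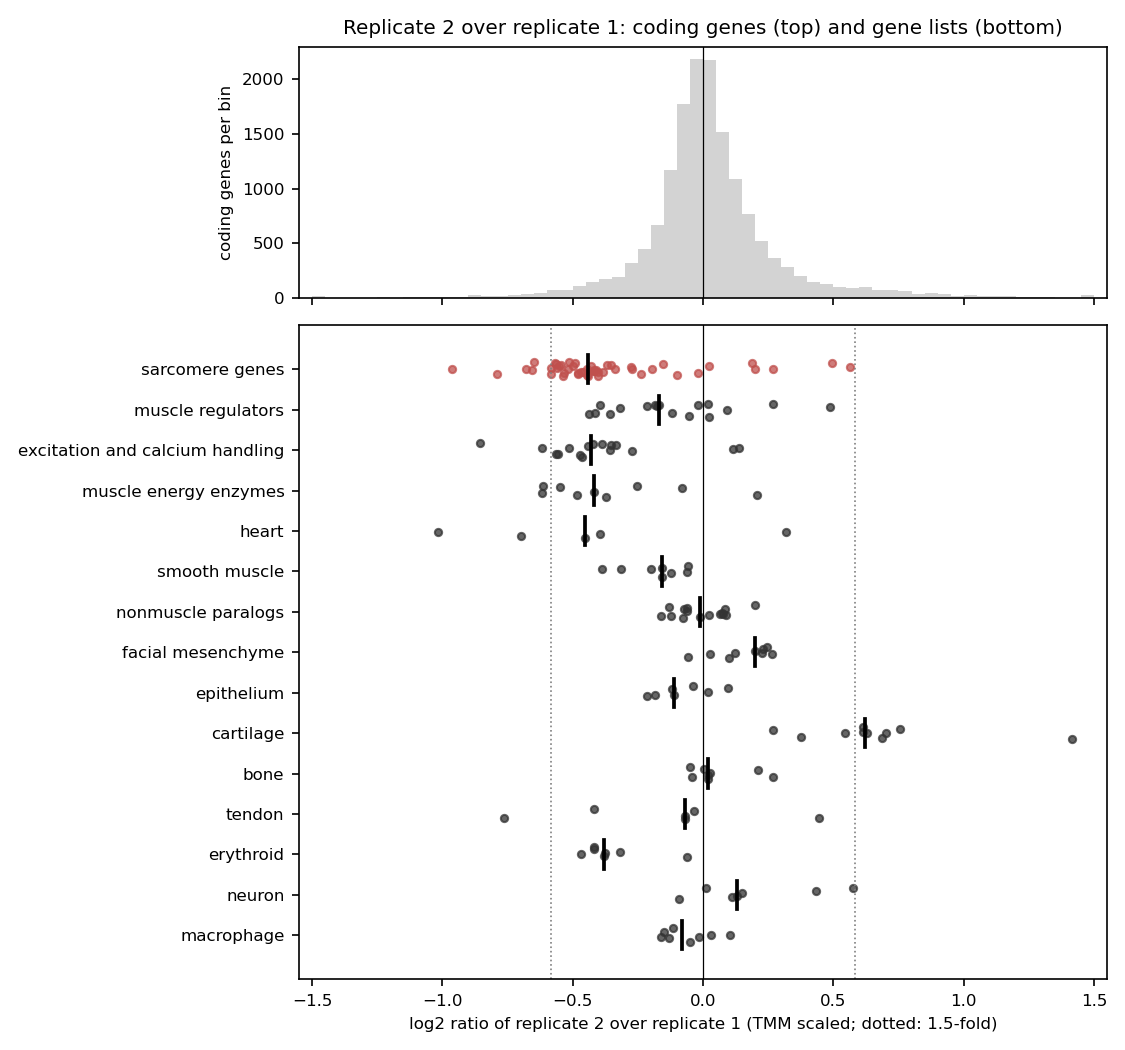
Log2 ratio of replicate 2 over replicate 1 for coding genes (top, number of genes per bin) and, below, for each gene of the sarcomere list (red) and of 14 other lists (grey), with a black bar at each median and dotted lines at 1.5-fold. The sarcomere genes centre on -0.44, as do the excitation and energy lists near -0.43 and -0.42, and the cartilage list centres on 0.62.

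Other muscle machinery was also mostly lower in replicate 2. Excitation and calcium-handling genes had a median log2 ratio of -0.43 over the 16 with enough counts. Of these 16, 2 were past 1.5-fold lower and none higher, against 2.14% and 4.36% of all coding genes. The highest were Sln, which restrains the calcium pump, at 196 TPM in replicate 1 and 162 TPM in replicate 2, the fast calcium pump Atp2a1 at 113 TPM and 81.3 TPM, and the calcium store protein Casq2 at 81.1 TPM and 61.0 TPM. Chrng, the fetal subunit of the acetylcholine receptor, was at 27.1 TPM in replicate 1 and 18.9 TPM in replicate 2, and Chrne, the adult subunit, at 0.39 TPM and 0.52 TPM. The fetal subunit was thus the higher in each library, though Chrne rested on only 5 and 9 expected counts. Energy enzymes of muscle had a median of -0.42 over 9 genes, with 2 past 1.5-fold lower and none higher, against the same shares of coding genes. Leading them were the creatine kinase Ckm at 105 TPM and 72.0 TPM, the enolase Eno3 at 89.7 TPM and 64.3 TPM and the mutase Pgam2 at 85.8 TPM and 56.0 TPM.

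All 17 muscle regulators were at 1 TPM or more, against 65.4% of all coding genes. Their median log2 ratio was -0.17. None was past 1.5-fold in either direction, against 2.14% of all coding genes lower and 4.36% higher. Of the myogenic factors, Myog, which drives differentiation, was at 192 TPM in replicate 1 and 146 TPM in replicate 2. Myod1 was at 56.6 TPM and 44.2 TPM, Myf5 at 16.3 TPM and 14.1 TPM and Myf6 at 9.40 TPM and 6.91 TPM. The fusion proteins of myoblasts, Mymk and Mymx, were at 57.1 TPM and 50.1 TPM and at 29.4 TPM and 21.9 TPM. Among regulators of head muscle, Tbx1 was at 19.3 TPM and 19.6 TPM, Msc at 38.4 TPM and 31.7 TPM and Tcf21 at 2.71 TPM and 2.39 TPM. Pax7, of muscle progenitors, was at 1.38 TPM and 2.00 TPM, and Pax3 at 37.8 TPM and 37.1 TPM. Mef2c was at 67.8 TPM and 61.9 TPM, Mef2a at 39.5 TPM and 36.0 TPM and Mef2d at 24.8 TPM and 24.4 TPM. Six4 was at 3.86 TPM and 4.10 TPM. Several of these factors, such as Pax3 and Mef2c, are also made by other cells of the face.

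Several of the 51 genes are also cardiac genes, and heart markers were low. Of 10 heart markers, only Myl7 was at 1 TPM or more in both libraries, against 65.4% of all coding genes. Myl7, the atrial regulatory light chain, was at 1.90 TPM in replicate 1 and 1.11 TPM in replicate 2. Tbx5 was at 1.05 TPM and 0.51 TPM. Nppa was at 0.33 TPM in each library, Nppb at 0.30 TPM and 0.34 TPM, Mybpc3 at 0.25 TPM and 0.32 TPM and Hcn4 at 0.30 TPM and 0.21 TPM. Ryr2 was at 0.20 TPM and 0.15 TPM, Tbx20 at 0.07 TPM and 0.03 TPM and Gata4 at 0.04 TPM and 0.00 TPM. Bmp10 had no counts in either library, which allows up to 3 reads, or 0.1 and 0.0958 TPM. The 10 markers summed to 4.44 TPM in replicate 1 and 3.0 TPM in replicate 2, far below Actc1, Tnnt2 or Tnnc1 alone. Over the 5 with enough counts the median log2 ratio was -0.45. Of these 5, 2 were past 1.5-fold lower in replicate 2, against 2.14% of all coding genes. Their part in the sarcomere difference was not tested.

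RNA levels of markers of other cell types differed between the pools as well. The part of those cell types in the sarcomere difference was not tested. Among all coding genes, 48.8% had ratios below 1, and 2.14% were past 1.5-fold lower and 4.36% higher. Cartilage markers were higher in replicate 2 (10 of 10, median 0.62, 7 past 1.5-fold). Col2a1 was at 182 TPM in replicate 1 and 305 TPM in replicate 2. The sum of the cartilage markers was 547 TPM in replicate 1 and 873 TPM in replicate 2. Facial mesenchyme markers had a median of 0.20 (8 of 9 higher), led by Msx1 at 145 TPM and 158 TPM. All 9 were at 1 TPM or more, against 65.4% of all coding genes. Erythroid markers had a median of -0.38 (7 of 7 lower in replicate 2), and summed to 26711 TPM in replicate 1 and 20221 TPM in replicate 2. Smooth muscle markers had a median of -0.16 (8 of 8 lower), led by Acta2 at 312 TPM and 272 TPM, and nonmuscle relatives of the sarcomere genes had a median of -0.01 over 15 genes. The other 5 lists had medians between -0.11 and 0.13: epithelium -0.11, macrophage -0.08, tendon -0.07, bone 0.02 and neuron 0.13. Tpm1 and Tpm3, at 0.02 and -0.02, had ratios near the median of the nonmuscle relatives, and which cells their reads came from was not measured.

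Some levels are uncertain because sequence is shared between genes. For the main model of each gene, runs of 100 nt were looked up in the transcripts of all other genes: 33 of the 51 genes shared none, and 11 shared over 5%. Tpm3-201 shared 47.9% with Tpm3-rs7, a related gene at 8.47 TPM in replicate 1 and 4.43 TPM in replicate 2. The main model of Myh1 shared 14.9% with other genes, that of Myh7 14.1%, of Myh6 11.4% and of Myh2 11.3%, so the low levels of Myh1, Myh2 and Myh6 depend on how reads were assigned. Myl1-202 shared 13.1% with the pseudogene Mylf-ps. Myh8 shared 6.61% with other heavy chains and Myh3 1.15%.

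Overlaps between genes matter too, since no strand setting is given in the sources used here. Tmod1 shared 38.8% of its runs with the opposite-strand gene Tstd2, which was at 24.2 TPM in replicate 1 and 32.9 TPM in replicate 2. Tnnc2 shared 25.6% with Ube2c on the opposite strand, at 238 TPM in each library, and Mybph 18.4% with Adora1. Unc45b shared 6.14%, mainly with an antisense transcript at under 1 TPM. Exons of Myom1 overlap those of Myl12a over 207 nt, and exons of Myl3 overlap those of Pth1r over 95 nt. On the same strand, exons of Tnni3 overlap those of Dnaaf3 over 86 nt. Dnaaf3 was at 3.49 TPM in replicate 1 and 6.13 TPM in replicate 2. Levels of these genes are given as the authors' estimates and may hold reads of the neighbour.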

How the data were processed

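Embryonic facial prominence RNA over 200 nt was extracted with mirVana, and 10 ng entered each library, per the labels' protocols. The labels give total RNA as the molecule but link a SMARTer Ultra Low kit manual, so a preference for polyadenylated RNA is open. Per the text deposited with the samples, reads were quantified in each library by itself on mm10 with annotation M4. For aligner, quantifier, version and strand, the entry is: not given in the sources used here. Per the file headers, the authors deposited an expected count and TPM per gene and per transcript. They also deposited the isoform percent of each transcript, the percent of its gene's transcripts. The deposited credibility bounds of TPM, recorded as a score because their level is not given, were used for Myh13, Tpm3-204 and 1 plot. GENCODE M21 (GRCm38) named the genes, and all 51 matched, 5 at the same identifier version.

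The genes and all lists were chosen with earlier results of these data known. A gene was counted as present at 1 TPM or more. Ratios came from rounded expected counts with TMM in edgeR 4.0.16 (R 4.3.3) and a prior count of 2, for genes that reached 10 counts in each library, and the step was tested on simulated data. No test was run, because each replicate is 1 library of 1 group. Nothing says whether the replicates came from separate litters. DESeq2 1.42.0 gave alternative size factors. Other steps used Python 3.11.15, numpy 2.4.6, pandas 2.3.3 and matplotlib 3.10.9. All 51 genes could be named. Given in full were those with means of 100 TPM or more, all heavy chains, both sides of each comparison of forms and the 5 largest ratios in each direction. Of the other lists the 3 highest genes could be named, and all heart and regulator genes, of which a few are not reported here. Transcripts followed a rule of 10 TPM and 2 models of 10 isoform percent. Chrng, Chrne, Tpm4 and the transcripts of Tpm3 and Neb lie outside these rules and were named after their values were seen. Of 8 erythroid markers, 7 were matched by name.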

Additional observations from a re-analysis of the deposited data

How the results depend on the processing

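Counts of present genes, families with the slow form higher and the median ratio stayed close under most alternatives. Without replicate 1 or replicate 2, the number of sarcomere genes at 1 TPM or more lay between 44 and 45, the developmental share of heavy chain TPM between 93.6% and 93.9%, and the families with the slow form higher numbered 5 each time. With the authors' posterior mean TPM the developmental share was 93.1%, a move larger than the spread between replicates. Scaling to the spike-ins gave a median log2 ratio of -1.08 for the 49 genes, with 44 past 1.5-fold lower, against 65.8% of coding genes. That scaling moved the median of all coding genes to -0.65, and relative to it the 49 genes stood at -0.44. With 100 or more counts required, 41 genes were left and 3 were past 1.5-fold, all of them lower, against 0.751% of coding genes lower. At 2-fold, with the main filter, 0 of the 49 genes were past it, against 0.649% of coding genes lower and 1.10% higher. DESeq2 size factors gave -0.43 and gene totals without TMM -0.41. Gene totals without TMM, and a prior count of 0.5, each left 5 lower and added 1 gene past 1.5-fold higher. The shares of coding genes were 1.95% lower and 4.73% higher without TMM, and 2.32% and 4.51% with that prior count. Over all alternatives, the values above stayed within their spread or threshold in 23 cases and moved in 5, single families and genes did so in 67 and 17, and none changed direction. Without scaling by length, slow troponin I held 73.4% and Tmod4 6.09%. Slow Myl2 held 1.03% of its pair with posterior mean TPM and 0.513% without scaling by length. Both lay outside the spread between replicates, and Mylpf stayed the higher. Depth limits Myh13, Myh4, Myh2, Mybpc2, Xirp2 and Myl2, each under 50 counts in both libraries. No paired analysis was possible because there is only 1 group.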
